A study of Mus musculus with 7 samples.

Results

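Macrophages lacking Tgm2 were compared with wild-type macrophages after exposure of both to lipopolysaccharide (LPS). The comparison took 4 of the 7 libraries of the series, chosen by their titles: 2 of the knockout with LPS (KO LPS) and 2 of the wild type with LPS (WT LPS). All 4 came from bone marrow-derived macrophages, made from marrow cells by 7 days of culture in the growth factor M-CSF at 25 ng/ml, then given LPS at 10 ng/ml for 6 hours. The mice are labelled as male and 6 to 8 weeks old. The other 3 libraries had the same culture without LPS, 2 from the wild type (WT M0) and 1 from the knockout (KO M0). The sources used here do not give the strain, the design of the Tgm2 allele or whether all cells of the mouse lack the gene. Nothing in the labels ties the replicates to different animals or cultures. The p-values therefore measure only the spread between these samples, and that spread may be technical.

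Levels are given in TPM, transcripts per 1000000, which are scaled to gene length and to the same total in each library and carry no sequencing depth. A fold change is the mean of KO LPS minus the mean of WT LPS on the log2(TPM + 1) scale, so changes of low genes come out too small. Of 23337 genes in each library, the 11096 with a mean of at least 1 TPM over the 7 libraries were tested with limma. That mean includes the LPS libraries, so a low gene can enter the test only through the group where it is high. A call in that direction is then favoured. Genes named below that entered so include Fam83d, Spag5, Pecam1, Adm, Ccr7 and Calcr through KO LPS, and Xist, Ifi208 and Ptgfr through WT LPS. A gene was called higher or lower at an adjusted p under 0.05. A call is said to hold when it passed again, in the same direction, in each of the 4 fits that left out 1 LPS library.

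Tgm2 encodes transglutaminase 2, an enzyme that joins glutamine and lysine side chains of proteins and is also known for a part in the uptake of dying cells by macrophages. LPS is sensed by Cd14, Md2 and Tlr4, which switch on NF-kappaB, AP-1 and interferon regulatory factors, and these drive cytokine, chemokine and interferon-stimulated genes. M-CSF keeps cultured macrophages dividing, and LPS is known to stop that division while it changes lipid metabolism. Sterol enzymes are transcribed by SREBP-2, a membrane-bound factor that is released when cell cholesterol is low, and liver X receptors (LXR) act when sterols are high.

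Tgm2 itself was lower in every knockout library. On chromosome 2 (mm10, chr2:158116405-158146392, a protein-coding gene), it was at 233 and 199 TPM in the WT LPS pair against 19.4 and 19.2 TPM in the KO LPS pair. Without LPS it was at 433 and 368 TPM in WT M0 and at 50.7 TPM in KO M0. The fold change under LPS was -3.41 (SE 0.16, limma adjusted p 4.5e-06), and the call held. Of the 32 tested genes within 2 Mb of Tgm2, 2 were higher and 0 lower, against 4.59% and 2.58% of all tested genes. The median fold change of the 32 was 0.02. The pair were Fam83d, a spindle protein (1.85, adjusted p 0.00083), and Rbl1, a relative of the retinoblastoma protein (0.91, adjusted p 0.04).

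Both WT LPS libraries went against their label in sex-linked genes. The WT LPS pair held 47.2 and 55.4 TPM of Xist, the RNA that silences an X chromosome in female cells, which is listed at 0 in KO LPS and at 0.00535 TPM or 0 in the untreated libraries. Eif2s3y, Ddx3y, Uty and Kdm5d, all Y-linked, were each called higher in KO LPS, with fold changes from 0.90 to 1.07, though only the Eif2s3y call held. Eif2s3y stood at 32.8 and 37.2 TPM in the WT LPS pair against 67.8 and 68.0 TPM in the KO LPS pair, where WT M0 had 66.1 and 68.1 TPM. Genotype and this difference cannot be told apart here, since no comparison of the genotypes under LPS remains without both WT LPS libraries. On the X chromosome 12 genes were higher and 12 lower of 345 tested, or 6.96%, and over the autosomes the called share ran from 5.39% on chromosome 19 to 9.04% on chromosome 12. Other transcripts also set the WT LPS pair apart. Ifi208, an interferon-inducible gene of a variable cluster, was at 61.0 and 35.2 TPM in the WT LPS pair against 0.412 and 0.147 TPM in the KO LPS pair, and Ptgfr, a prostaglandin receptor, had 19.4 and 10.4 TPM there, while each of the other 5 libraries lists it at 0. Erdr1, a transcribed pseudogene placed on the X chromosome, was at 305 and 292 TPM against 48.5 and 21.3 TPM, with 48.7 and 49.5 TPM in WT M0 and 113 TPM in KO M0.

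The defining macrophage markers were present in all 4 LPS libraries, and none of the 10 was called. Adgre1, the F4/80 antigen, was at 1270 and 1350 TPM in the WT LPS pair against 1500 and 1720 TPM in the KO LPS pair, and Csf1r, the M-CSF receptor, at 2130 and 2280 TPM against 1980 and 2090 TPM. Markers of B cells, T and NK cells, mast cells and erythroid cells summed to at most 3.89 TPM in any LPS library. Of the neutrophil list, Mpo, Elane and Cxcr2 stood at 0.0579 TPM or less, while Csf3r, Mmp8, S100a8 and Camp were present. Csf3r stood at 198 and 194 TPM in the WT LPS pair against 198 and 186 TPM in the KO LPS pair. Summed neutrophil markers were 486 and 607 TPM in the WT LPS pair against 354 and 404 TPM in the KO LPS pair, and 1 of 4 tested (S100a8) was lower. Monocyte markers summed to 1850 and 1930 TPM against 1270 and 1450 TPM, with Ly6c2 lower (1 of 6 tested), while stromal and endothelial markers summed to 39.2 and 36.2 TPM against 73.0 and 70.6 TPM, with Kdr, Col1a1 and Col1a2 higher (3 of 7 tested). Dendritic cell markers summed to 29.2 and 27.9 TPM against 140 and 105 TPM, mostly through Fscn1, which was higher (1 of 3 tested). All 3 tested had fold changes above 0, though Ccr7 passed the filter only through its KO LPS values, which favoured that sign. Xcr1, under the filter, was at 1.37 and 0.938 TPM in the WT LPS pair against 0.792 and 1.35 TPM in the KO LPS pair. At low levels, Ccr7 was at 1.40 and 0.417 TPM against 3.02 and 2.33 TPM, and Batf3 at 0 and 0.582 TPM against 1.46 and 1.24 TPM. Flt3 and Zbtb46 were at 0.146 TPM or less in the LPS libraries. Over all tested genes 4.59% were called higher and 2.58% lower, the shares to set beside these counts. The part of other cells in the results below was not tested.

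KO LPS and WT LPS differed in 795 of the 11096 tested genes, or 7.16%. In KO LPS 509 genes were higher (4.59%) and 286 were lower (2.58%), the shares to set beside each count of called list members. By at least 1 log2 unit 341 were higher (3.07%) and 147 lower (1.32%). Calls that held numbered 290, of which 192 were higher (1.73%) and 98 lower (0.883%). The split between directions depended on scaling: median-ratio scaling of the TPM gave 445 higher and 305 lower, and quantile normalization 390 and 335. Leaving out KO LPS replicate 2 gave 399 calls, WT LPS replicate 2 gave 423 and KO LPS replicate 1 gave 520. On autosomes alone 499 genes were higher and 274 lower. The median fold change over all tested genes was 0.03. The plot of fold change against level shows where the named genes lie among all genes.

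**Figure D1:**
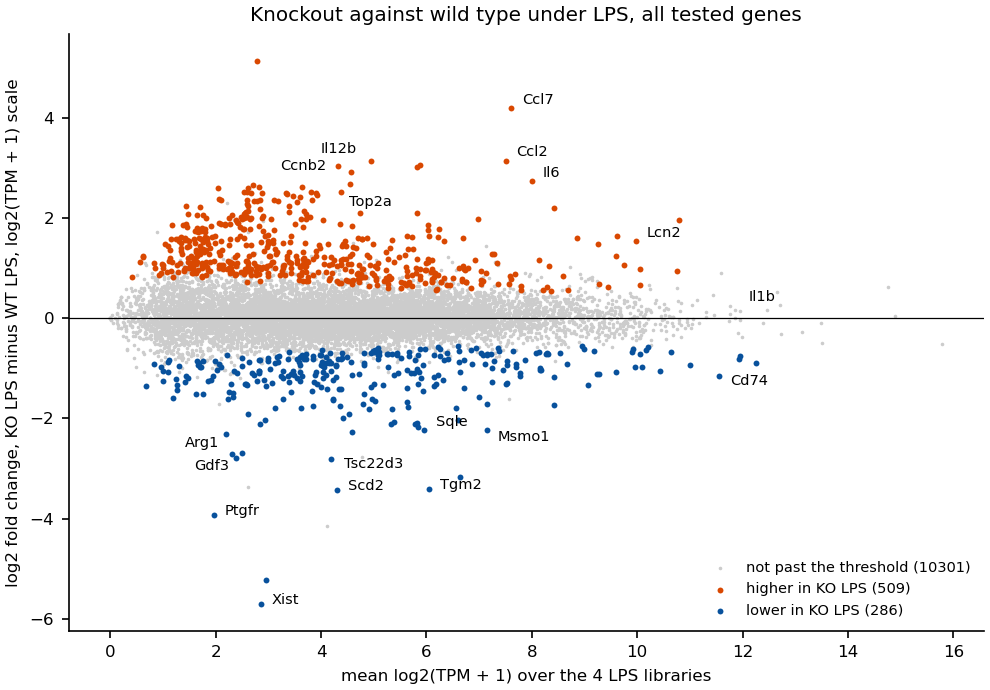
Fold change of each of 11096 tested genes (KO LPS minus WT LPS, log2(TPM + 1), vertical axis) against its mean log2(TPM + 1) over the 4 LPS libraries (horizontal axis). Orange points are the 509 genes called higher, blue points the 286 called lower, grey points the rest. Among the labelled genes Ccl7, Ccl2, Il12b, Ccnb2 and Il6 lie highest, below the largest rise of 5.14. Tgm2 and Scd2 lie low, and Il1b, among the highest transcripts, lies near 0. Xist and Ptgfr are listed at 0 in KO LPS, so their height depends on the pseudocount.

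Genes of mitosis and cytokinesis were higher in KO LPS almost without exception. Of 53 tested members 50 were higher and 0 lower, where 4.59% of all tested genes were higher, and all 50 calls held. The fold changes of the 50 ran from 1.18 to 3.04 and the list's median was 2.08 against 0.03 over all genes. In all 53 genes both KO LPS libraries lay above both WT LPS libraries, as they did for 28.7% of all tested genes. Summed over the list, WT LPS held 329 and 428 TPM and KO LPS 1400 and 1480 TPM, while the untreated libraries held from 393 to 480 TPM. In bulk RNA, more cells in division and more of each transcript per cell cannot be told apart.

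The promoters of 3 called members are shown because the list's members moved together and these hold both motifs known from late cell cycle genes, the CCAAT box bound by NF-Y and the cell cycle homology region, searched as TTTGAA. Each sequence is the 250 bases before the start given in the RefSeq promoter table (GRCm38.p6, the assembly that mm10 is built on), written 5′ to 3′ in the direction of the gene, with matches on either strand in capitals. They come from chr9:70421555-70421804 (minus strand) for Ccnb2, chr2:129297213-129297462 (minus strand) for Ckap2l and chr19:37376132-37376381 (plus strand) for Kif11. The RefSeq gene span of Ckap2l reaches to 129297228, so the last bases shown for it, with the last CCAAT box, lie inside that span.
Ccnb2: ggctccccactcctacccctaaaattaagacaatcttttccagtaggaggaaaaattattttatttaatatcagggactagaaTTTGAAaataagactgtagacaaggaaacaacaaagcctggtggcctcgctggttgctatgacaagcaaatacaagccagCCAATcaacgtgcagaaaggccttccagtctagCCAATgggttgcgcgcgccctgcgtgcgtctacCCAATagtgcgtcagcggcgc
Ckap2l: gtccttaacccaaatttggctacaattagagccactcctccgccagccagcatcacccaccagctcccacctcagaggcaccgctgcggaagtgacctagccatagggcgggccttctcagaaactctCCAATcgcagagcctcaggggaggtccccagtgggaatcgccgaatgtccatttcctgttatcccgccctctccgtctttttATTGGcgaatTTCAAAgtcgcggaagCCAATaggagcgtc
Kif11: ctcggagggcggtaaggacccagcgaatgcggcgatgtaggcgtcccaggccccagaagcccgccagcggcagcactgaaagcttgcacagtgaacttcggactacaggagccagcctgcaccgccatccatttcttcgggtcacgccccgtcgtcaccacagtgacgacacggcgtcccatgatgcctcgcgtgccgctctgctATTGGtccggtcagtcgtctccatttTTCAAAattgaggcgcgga
Matches of the motifs did not overlap each other in these promoters. CCAAT was found in 33 of the 44 list promoters in the table (75.0%) and in 36.8% of the 8824 promoters of tested genes, and TTTGAA in 15 of 44 (34.1%) and 10.7%. A match describes these letters only.

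The mitotic cyclins, which activate Cdk1 for entry into mitosis, gave some of the largest values. Ccnb2 stood at 5.49 and 6.48 TPM in the WT LPS pair against 53.2 and 59.7 TPM in the KO LPS pair, a fold change of 3.04 (SE 0.23, limma adjusted p 0.00011). Ccnb1 was at 5.50 and 10.4 TPM against 57.7 and 71.3 TPM (2.92, SE 0.26, adjusted p 0.00016). Both were high in KO LPS alone, since the 3 untreated libraries held from 3.59 to 6.16 TPM of Ccnb2 and from 2.97 to 5.28 TPM of Ccnb1. Cdk1 was higher by 2.13 and Ccna2, the cyclin of S phase and early mitosis, by 2.09. Foxm1, a transcription factor of these genes, was at 2.17 and 2.08 TPM in the WT LPS pair against 10.4 and 9.14 TPM in the KO LPS pair (1.78, SE 0.21, adjusted p 0.00063).

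Genes of mitotic exit, mitotic kinases and spindle genes were higher too. Ube2c, the ubiquitin-conjugating enzyme of the anaphase-promoting complex, stood at 14.1 and 25.2 TPM in the WT LPS pair against 138 and 189 TPM in the KO LPS pair (3.03, SE 0.29), and Cdc20, an activator of that complex, was higher by 2.42. The mitotic kinases Plk1 (2.50), Aurka (2.37), Aurkb (2.19) and Nek2 (2.53) were higher as well. Kinetochore and spindle genes included Cenpe, a motor that moves chromosomes to the spindle equator, at 1.38 and 1.87 TPM against 15.4 and 15.5 TPM (2.66, SE 0.21). Kif11, the motor that separates spindle poles, was at 1.92 and 2.36 TPM against 14.9 and 15.5 TPM, and Ckap2l, a spindle protein, at 3.46 and 4.64 TPM against 29.3 and 30.2 TPM. For each of these genes the groups lay far apart. Prr11 (2.61) and Spag5 (2.61), with roles in the late cell cycle and at the spindle, were outside the list and among the 15 largest rises that held.

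The members differed in where KO LPS lay relative to untreated cells. Cenpa, the histone of centromeres, was at 4.38 and 5.29 TPM in the WT LPS pair against 30.3 and 35.1 TPM in the KO LPS pair (2.53, SE 0.18, adjusted p 7.6e-05), but the untreated libraries held 60.5, 69.2 and 72.5 TPM, so KO LPS lay between them. Stmn1, which destabilises microtubules, was at 7.83 and 8.78 TPM in the WT LPS pair, at 67.6 and 50.5 TPM in the KO LPS pair and at 20.5 to 29.1 TPM without LPS, so KO LPS lay above both. Mki67, the Ki-67 proliferation antigen, stood at 20.6 and 26.5 TPM against 69.6 and 58.6 TPM (1.41, SE 0.19). Relative to the WT M0 mean, the median of the list on the log2(TPM + 1) scale was -0.08 and 0.22 in the WT LPS libraries, 0.35 in KO M0 and 1.95 and 2.01 in KO LPS. The 3 members that were not called, Pbk, Tubb4b and Hmgb2, had fold changes of 1.12, 0.29 and 0.25.

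DNA replication genes were higher less uniformly. Of 34 tested members of the G1/S and replication list 12 were higher and 0 lower, against 4.59% and 2.58% of all tested genes. The median was 0.59, and 6 of the calls held. The count was 6 without WT LPS replicate 1 and 7 without either KO LPS library. Mcm10, which loads replication factors at origins, was at 1.85 and 1.47 TPM in the WT LPS pair against 13.9 and 14.3 TPM in the KO LPS pair (2.51, SE 0.21, adjusted p 0.00014), where untreated cells held at most 1.19 TPM. Mcm5, part of the replicative helicase, was at 3.30 and 3.63 TPM against 13.9 and 12.3 TPM (1.66, SE 0.19). Rrm1, a subunit of ribonucleotide reductase, stood at 4.21 and 6.19 TPM against 17.1 and 19.2 TPM (1.64, SE 0.24). Mcm10 in KO LPS stood above untreated cells, while the list's median relative to WT M0 was -0.76 and -0.47 for the WT LPS pair against 0.15 and 0.10 for the KO LPS pair. Cdc45 (1.61), Uhrf1 (1.61) and Tyms (1.51) completed the calls that held, and the sliding clamp Pcna, at 239 and 231 TPM against 199 and 206 TPM, was not called (-0.21, adjusted p 0.47).

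Several inhibitors of the cell cycle were higher too. Of 28 tested G1 cyclins, Cdk inhibitors and p53 targets 6 were higher and 2 lower, against 4.59% and 2.58% of all tested genes. The list's median was 0.24. Cdkn2c, the Cdk4 and Cdk6 inhibitor p18, was at 3.65 and 3.04 TPM in the WT LPS pair against 12.2 and 12.9 TPM in the KO LPS pair (1.65, SE 0.19, adjusted p 0.00062), close to the 13.9 to 16.6 TPM of untreated cells, and its call was the only one of the 8 to hold. Cdkn1a, encoding p21, was at 357 and 227 TPM against 571 and 465 TPM (0.85, adjusted p 0.04), and Cdkn1b, encoding p27, at 27.1 and 28.9 TPM against 52.0 and 45.2 TPM (0.77, adjusted p 0.021). The G1 cyclin Ccnd2 (1.08) and the p53 target Phlda3 (1.36) were also higher, and the antiproliferative Btg1 (-0.86) and the stress protein gene Sesn1 (-1.12) were lower. Ccnd1, the cyclin through which growth factors act, was low in every LPS library (2.56 and 1.85 TPM in WT LPS, 3.06 and 3.05 TPM in KO LPS) and was not called. With KO LPS replicate 1 left out the 6 higher calls fell to 1, with WT LPS replicate 2 left out to 2, and with KO LPS replicate 2 or either WT M0 library left out to 3, as they did with median-ratio scaling or quantile normalization. The 2 lower calls fell to 0 without WT LPS replicate 2 or either KO LPS library, and to 1 without WT LPS replicate 1 or either WT M0 library.

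**Figure D2:**
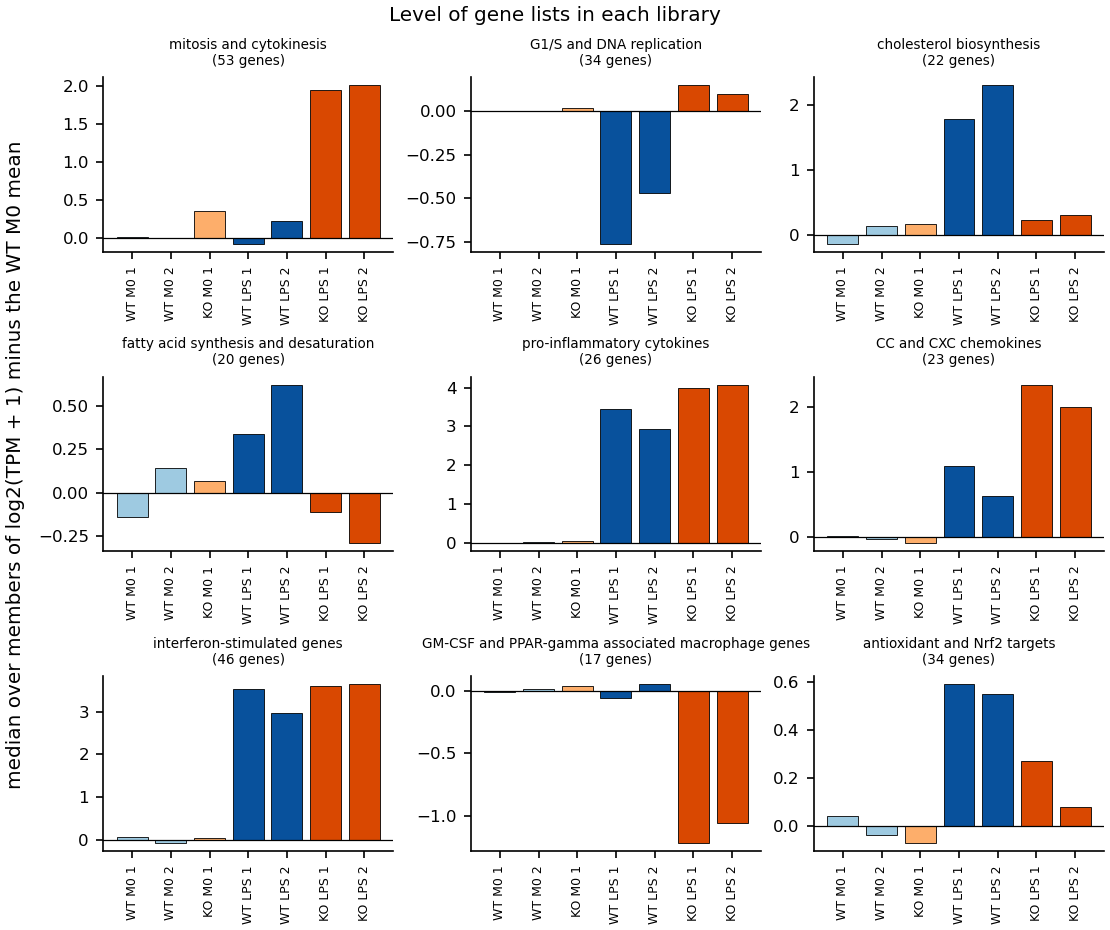
Median over the tested members of 9 gene lists of log2(TPM + 1) minus the WT M0 mean (vertical axis, a scale of its own in each panel), 1 bar a library. The mitosis list stands at 1.95 and 2.01 in KO LPS and near 0 in WT LPS, the cholesterol biosynthesis list at 1.79 and 2.31 in WT LPS and near 0 in KO LPS, and the interferon-stimulated list at 3.53 and 2.96 for the WT LPS pair against 3.59 and 3.64 for the KO LPS pair.

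Cholesterol biosynthesis genes were lower in KO LPS along nearly the whole pathway. Of 22 tested genes 18 were lower and 0 higher, where 2.58% of all tested genes were lower, and 16 of the calls held. The fold changes of the 18 ran from -2.24 to -1.13, with a list median of -1.73. Summed over the list, WT LPS held 1640 and 2080 TPM, KO LPS 511 and 555 TPM and the untreated libraries from 408 to 476 TPM. So the WT LPS libraries were the high ones, and KO LPS lay near the untreated level. The libraries of the groups did not overlap, with KO LPS the lower, in 19 of the 22 genes, against 21.0% of all tested genes.

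The promoter of Hmgcs1 is shown because it was the member among the table's 16 list promoters to hold the sterol element, searched as TCACNCCAC, through which SREBP acts. It covers the 250 bases before the gene start (RefSeq, GRCm38.p6, chr13:119690101-119690350, plus strand), with capitals for the sterol element and for CCAAT boxes on either strand.
Hmgcs1: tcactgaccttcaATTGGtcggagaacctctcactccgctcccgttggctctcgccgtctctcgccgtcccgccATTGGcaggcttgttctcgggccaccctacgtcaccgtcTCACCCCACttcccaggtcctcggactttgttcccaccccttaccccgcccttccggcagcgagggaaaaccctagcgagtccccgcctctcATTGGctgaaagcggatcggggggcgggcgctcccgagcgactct
The sterol element as spelled was found in 1 of 16 list promoters (6.25%) and in 0.884% of all 8824, and CCAAT in 14 of 16 (87.5%) and 36.8%.

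The entry enzymes and the mevalonate steps were lower together. Hmgcs1, which makes HMG-CoA, stood at 175 and 219 TPM in the WT LPS pair against 47.8 and 45.6 TPM in the KO LPS pair (-2.04, SE 0.18, limma adjusted p 0.00015). Acat2, which joins acetyl-CoA units ahead of it, was lower by a fold change of -1.91. Of the later mevalonate enzymes Mvd (-1.81) and Idi1 (-2.10) were lower with calls that held, and Mvk was lower (-1.13) with a call that did not. Pmvk, between Mvk and Mvd, was at 26.1 and 21.8 TPM against 14.9 and 12.7 TPM and was not called (-0.75, adjusted p 0.094).

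At the branch to other isoprenoids the members parted. Fdps, which makes farnesyl diphosphate, stood at 217 and 256 TPM in the WT LPS pair against 89.5 and 104 TPM in the KO LPS pair (-1.28, SE 0.17), well above the 22.3 to 26.1 TPM of untreated cells. Ggps1, which leads from there to protein prenylation and not to sterols, was at 15.3 and 17.8 TPM against 15.6 and 16.9 TPM (-0.02, adjusted p 0.97). Fdft1, squalene synthase and the first enzyme committed to sterols, was at 75.3 and 92.0 TPM against 16.2 and 20.7 TPM (-2.12, SE 0.19, adjusted p 0.00016). The groups thus overlapped for Ggps1 and lay far apart for Fdft1.

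The sterol steps from squalene to cholesterol were also lower, apart from Tm7sf2 and Ebp. Sqle, squalene epoxidase, stood at 114 and 155 TPM in the WT LPS pair against 26.5 and 28.3 TPM in the KO LPS pair (-2.24, SE 0.19, adjusted p 0.00014). Msmo1, which removes methyl groups from sterols, was at 264 and 357 TPM against 54.8 and 74.7 TPM (-2.24, SE 0.23). In both genes KO LPS lay below the untreated libraries too, which held 41.6 to 53.6 TPM of Sqle and 78.9 to 115 TPM of Msmo1. Cyp51, lanosterol demethylase (-2.17), and Sc5d, a sterol desaturase (-2.11), were lower with calls that held. Hsd17b7, a sterol reductase, stood at 44.2 and 55.5 TPM against 13.1 and 15.9 TPM (-1.71), with at most 4.14 TPM in untreated cells, so there KO LPS lay between. Tm7sf2 had a fold change of -0.19 and Ebp, a sterol isomerase, of -0.08, with overlapping libraries in both genes.

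**Figure D3:**
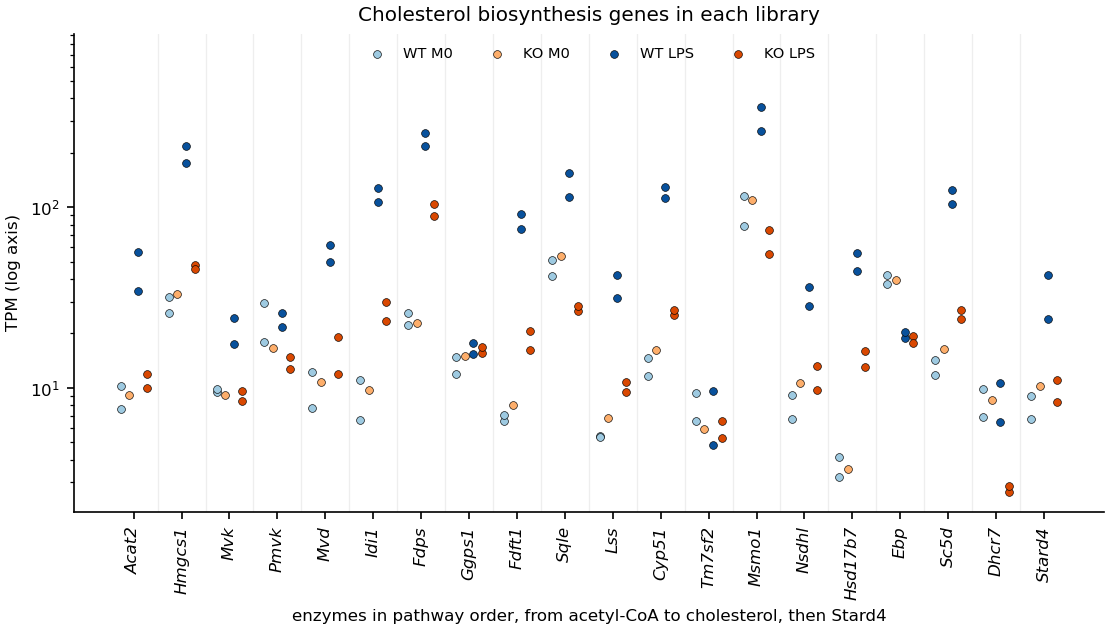
TPM of 20 of the 22 cholesterol biosynthesis genes in each of the 7 libraries (log axis), in pathway order from left to right, with Stard4, a sterol carrier, last. The dark blue WT LPS points stand above the orange KO LPS points in most columns. Ggps1, Tm7sf2 and Ebp, which were not called, have overlapping points.

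Other SREBP targets and regulators were lower in part. Of 13 tested genes of SREBP regulation and cholesterol uptake 3 were lower and 0 higher, against 2.58% and 4.59% of all tested genes. The list's median was -0.36. Insig1, an SREBP target that holds SREBP in the endoplasmic reticulum, was at 158 and 193 TPM in the WT LPS pair against 51.0 and 48.0 TPM in the KO LPS pair (-1.80, SE 0.18, adjusted p 0.00021). Scarb1, a receptor for HDL, was lower by a fold change of -1.03, with a call that did not hold. Srebf2, which encodes SREBP-2, stood at 194 and 178 TPM against 134 and 108 TPM and missed the threshold (-0.62, adjusted p 0.051). Its partner Scap (-0.14) and Srebf1 (-0.41) were not called either.

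Of 20 tested fatty acid synthesis and desaturation genes 6 were lower and 0 higher, against 2.58% and 4.59% of all tested genes. The list's median was -0.39, and 3 of the calls held. Scd2, a desaturase that makes monounsaturated fatty acids, was at 43.3 and 93.8 TPM in the WT LPS pair against 5.50 and 4.67 TPM in the KO LPS pair (-3.42, SE 0.33, adjusted p 0.00018), below the 12.9 to 20.1 TPM of untreated cells. Its close relative Scd1 was low in all LPS libraries (3.10 and 3.69 TPM against 1.20 and 1.37 TPM, -0.94). The sources used here do not say how reads shared by such related genes were assigned. Fasn, fatty acid synthase, was at 27.2 and 36.5 TPM against 9.95 and 9.43 TPM (-1.61, SE 0.21), and Acsl3, which activates fatty acids, at 14.5 and 17.6 TPM against 3.90 and 5.32 TPM (-1.61, SE 0.22). Fads2 (-1.28) and Acss2 (-0.79) were lower with calls that did not hold, and the count was 3 without KO LPS replicate 2 or WT LPS replicate 2. Acsl1, the list's highest transcript at 1420 and 1600 TPM against 1270 and 1300 TPM, was not called.

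Genes of cholesterol efflux moved both ways. Of 17 tested efflux and LXR genes 3 were higher and 2 lower, against 4.59% and 2.58% of all tested genes, with a median of -0.18. Ch25h, which makes 25-hydroxycholesterol, a sterol that keeps SREBP inactive, stood at 80.9 and 48.8 TPM in the WT LPS pair against 222 and 283 TPM in the KO LPS pair (1.98, SE 0.24, adjusted p 0.0007), and its call alone held. Cyp27a1, another sterol hydroxylase (0.73), and the efflux pump Abcg1 (0.87) were higher. Apoe, the lipoprotein that carries cholesterol away, was at 7680 and 5790 TPM against 3800 and 3350 TPM (-0.90, adjusted p 0.025), and Pltp, a phospholipid transfer protein, at 1220 and 1050 TPM against 607 and 470 TPM (-1.08, adjusted p 0.0067). The pump Abca1 (-0.22) and the receptors Nr1h3 (-0.37) and Nr1h2 (-0.19) were not called. The 3 higher calls fell to 1 when any 1 of the 4 LPS libraries was left out and with quantile normalization, and the 2 lower calls to 1 without KO LPS replicate 2 or WT LPS replicate 1 and with median-ratio scaling.

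Of 26 tested pro-inflammatory mediators 11 were higher in KO LPS and 1 lower, against 4.59% and 2.58% of all tested genes. The list's median was 0.77, and 6 of the higher calls held. The count of higher genes was 7 without WT LPS replicate 2. Il6, the cytokine that drives the acute phase response, was at 137 and 70.6 TPM in the WT LPS pair against 617 and 718 TPM in the KO LPS pair (2.74, SE 0.27, limma adjusted p 0.00021). Il12b, the subunit shared by interleukins 12 and 23, stood at 11.3 and 7.68 TPM against 85.3 and 95.0 TPM (3.14, SE 0.22, adjusted p 7.6e-05). Untreated libraries held at most 0.793 TPM of Il6 and 0.146 TPM of Il12b. Csf3, the granulocyte growth factor (1.87), Nos2, the inducible nitric oxide synthase (1.60), Lcn2, which binds bacterial iron carriers (1.54), and Ptgs2, the inducible cyclooxygenase (1.49), were the other calls that held. Ptges, the prostaglandin E synthase that follows Ptgs2, was the member that was lower, at 1310 and 1420 TPM against 814 and 858 TPM (-0.71, adjusted p 0.015), with a call that did not hold.

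Several cytokines showed smaller or less stable differences. Tnf was at 741 and 480 TPM in the WT LPS pair against 1420 and 1090 TPM in the KO LPS pair (1.06, SE 0.23, adjusted p 0.018), and Il27 at 60.3 and 25.7 TPM against 183 and 105 TPM (1.79, SE 0.36). Neither pair of groups overlapped, as was so with KO LPS the higher for 28.7% of all tested genes, and neither call held. Il12a (0.89), Csf1, which encodes M-CSF (0.92), and Tnfsf15, a TNF relative (1.55), were higher likewise. Il1b, one of the highest transcripts, was at 4240 and 3380 TPM against 4030 and 4310 TPM and was not called (0.14, SE 0.18, adjusted p 0.75). Saa3, an acute phase protein, stood at 23100 and 21500 TPM against 33400 and 35200 TPM and was not called (0.62, SE 0.39).

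The promoters of Il6 and of the chemokine gene Cxcl1 are shown because both genes were higher and both hold the NF-kappaB motif, searched as GGNNTTTCC on either strand and marked in capitals. They cover the 250 bases before the gene start (RefSeq, GRCm38.p6), chr5:30012864-30013113 (plus strand) for Il6 and chr5:90890995-90891244 (plus strand) for Cxcl1.
Il6: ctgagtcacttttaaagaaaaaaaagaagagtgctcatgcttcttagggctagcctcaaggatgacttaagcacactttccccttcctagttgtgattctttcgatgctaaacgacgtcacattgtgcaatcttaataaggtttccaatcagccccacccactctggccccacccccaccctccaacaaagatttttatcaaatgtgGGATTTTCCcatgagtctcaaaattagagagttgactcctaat
Cxcl1: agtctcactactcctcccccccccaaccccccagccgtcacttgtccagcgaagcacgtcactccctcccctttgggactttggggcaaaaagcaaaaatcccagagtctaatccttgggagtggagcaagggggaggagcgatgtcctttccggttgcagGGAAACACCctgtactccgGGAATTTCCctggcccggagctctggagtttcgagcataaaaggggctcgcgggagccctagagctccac
The motif was found in 4 of 18 promoters of the mediator list (22.2%) and 6 of 15 of the chemokine list (40.0%), against 5.16% of all 8824, and in 5.60% of the promoters of all genes called higher.

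Most of the called chemokine genes were higher in KO LPS. Of 23 tested CC and CXC chemokines 10 were higher and 3 lower, against 4.59% and 2.58% of all tested genes. Of the higher calls 6 held, and the list's median was 0.90. The monocyte attractants Ccl2, Ccl7 and Ccl12 lie in one cluster on chromosome 11 (mm10, chr11:82035577-82103399). Ccl2 was at 85.2 and 42.2 TPM in the WT LPS pair against 564 and 520 TPM in the KO LPS pair (3.15, SE 0.28, adjusted p 0.00016). Ccl7 was at 64.2 and 31.2 TPM against 567 and 1220 TPM (4.19, SE 0.36, adjusted p 0.00015), and Ccl12 at 34.6 and 10.6 TPM against 116 and 248 TPM (3.07, SE 0.52, adjusted p 0.0053). WT LPS stood close to the untreated libraries for Ccl2 (27 to 46 TPM), and KO LPS stood far above both. Within each group the Ccl12 libraries lay far apart. The groups did not overlap, as was so with KO LPS the higher for 28.7% of all tested genes.

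Among neutrophil attractants Cxcl1 stood at 528 and 372 TPM against 1560 and 1240 TPM (1.65, SE 0.20, adjusted p 0.00062). Its relative Cxcl3 moved the other way, at 2280 and 1730 TPM against 1270 and 710 TPM (-1.06, SE 0.25, adjusted p 0.032), with a call that did not hold. The interferon-inducible attractants of T cells were higher: Cxcl9 by 1.51 with a call that held, and Cxcl10 (1.97) and Cxcl11 (1.11) with calls that did not. Cxcl10 was at 1620 and 496 TPM in the WT LPS pair against 2830 and 4390 TPM in the KO LPS pair, so the WT LPS pair itself was far apart. Cx3cl1, fractalkine, was at 0.815 and 0.519 TPM against 6.98 and 5.00 TPM (2.06, SE 0.23), below the 10.6 to 14.3 TPM of untreated cells. Pf4, platelet factor 4, was lower, at 836 and 861 TPM against 373 and 300 TPM (-1.34, SE 0.16, adjusted p 0.00062), and so was Ccl6 (-0.72). Ccl5, the highest chemokine transcript, stood at 6970 and 5390 TPM against 8820 and 6140 TPM, with overlapping groups (0.26, adjusted p 0.54). The 3 lower calls fell to 1 without KO LPS replicate 2 or either WT LPS library.

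No chemokine receptor was called higher. Of 21 tested receptors 3 were lower and 0 higher, against 2.58% and 4.59% of all tested genes. The list's median was -0.34, and the 3 calls held. Cxcr4, the receptor that keeps cells in the marrow, was at 36.3 and 73.6 TPM in the WT LPS pair against 9.11 and 10.7 TPM in the KO LPS pair (-2.28, SE 0.30, adjusted p 0.0013), with 190 to 314 TPM in untreated cells. Ccr1, a receptor for inflammatory CC chemokines, was at 40.6 and 43.0 TPM against 7.89 and 11.9 TPM (-2.0, SE 0.23), and Ccr3 at 7.14 and 6.71 TPM against 1.71 and 2.02 TPM (-1.47, SE 0.22). In these 3 genes KO LPS was below every other library. Without WT LPS replicate 1, 3 other receptors were called higher.

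**Figure D4:**
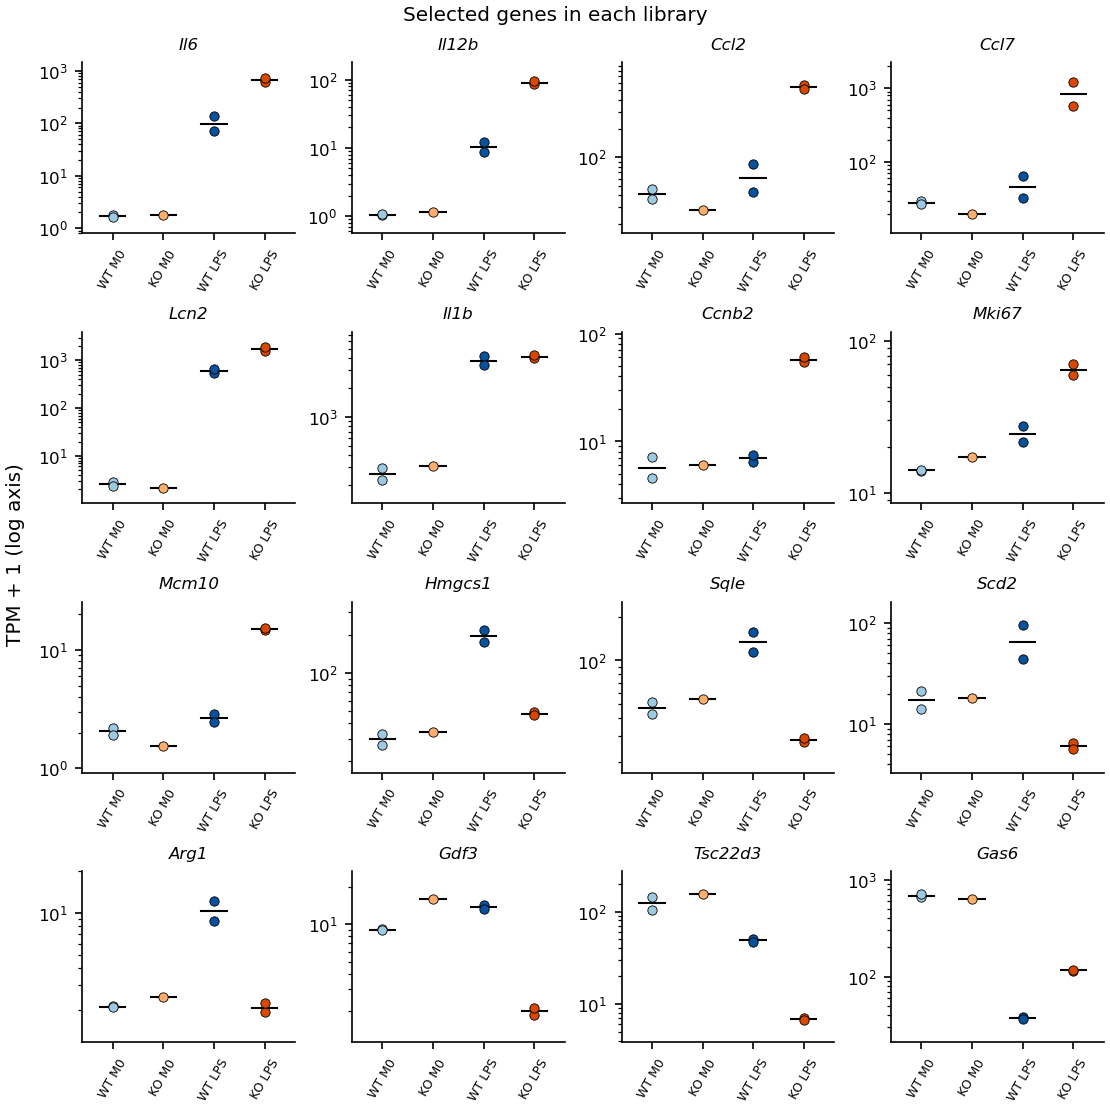
TPM + 1 of 16 genes in each library (log axis, 1 panel a gene), with 1 point a library and a line at the mean of each group. Il6, Il12b, Ccl2 and Ccl7 stand higher in KO LPS than in WT LPS, Il1b stands level, Ccnb2 and Mcm10 are high in KO LPS alone, Hmgcs1 and Arg1 are high in WT LPS alone, and Gas6 in KO LPS lies between WT LPS and the untreated libraries.

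Of 29 tested genes of LPS sensing 1 was higher and 1 lower, a share near the 7.16% called over all genes, with a median of -0.04. Tlr4 stood at 37.6 and 50.6 TPM in the WT LPS pair against 28.6 and 39.7 TPM in the KO LPS pair (-0.36, SE 0.25, adjusted p 0.49), and its co-receptor Cd14 at 4720 and 4500 TPM against 3700 and 3390 TPM (-0.38, SE 0.18, adjusted p 0.28). The calls were Tlr3, a sensor of double-stranded RNA (1.02, adjusted p 0.04), and Tlr13, a sensor of bacterial ribosomal RNA (-0.74, adjusted p 0.045). Both were lost without WT LPS replicate 2 or either KO LPS library, and Tlr13 also without WT LPS replicate 1. Quantile normalization lost both, and Tlr3 was also lost without either WT M0 library and with median-ratio scaling.

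Among 33 inducible transcription factors 3 were higher and 3 lower, against 4.59% and 2.58% of all tested genes, with a median of 0.18. Cebpd, a C/EBP factor induced in inflammation, was at 165 and 132 TPM in the WT LPS pair against 261 and 251 TPM in the KO LPS pair (0.79, adjusted p 0.016). Batf (0.72) and Nfkb1, the p50 subunit of NF-kappaB (0.57), were higher by less, and the 3 calls fell to 0 without WT LPS replicate 2 or either KO LPS library. Cebpa, a C/EBP factor of myeloid differentiation, was at 47.3 and 45.7 TPM against 20.3 and 12 TPM (-1.51, SE 0.23, adjusted p 0.0028), and Fos, an AP-1 subunit, at 50.7 and 63.6 TPM against 22.6 and 21.1 TPM (-1.34, SE 0.20, adjusted p 0.0024). These calls held, and Egr2 (-1.10) was lower with a call that did not.

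Interferon-stimulated genes gave few calls. Of 46 tested genes 1, Iigp1, was higher (1.55, limma adjusted p 0.011) and 0 were lower, against 4.59% and 2.58% of all tested genes. Of the 46 fold changes 44 lay above 0, with a median of 0.36 against 0.03 over all tested genes. The WT LPS libraries differed in this list, with medians of 3.53 and 2.96 relative to the WT M0 mean against 3.59 and 3.64 in KO LPS. Without WT LPS replicate 1 the count of higher genes was 12 and the median 0.63, and without WT LPS replicate 2 they were 0 and 0.11. The count was also 0 without KO LPS replicate 2. Iigp1 stood at 66.7 and 32.2 TPM in the WT LPS pair against 119 and 159 TPM in the KO LPS pair.

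Of 28 tested genes that restrain inflammation 1 was higher and 1 lower, a share near the 7.16% called over all genes, with a median of 0.09. Tsc22d3, the glucocorticoid-induced leucine zipper, was at 49.9 and 45.6 TPM in the WT LPS pair against 6.00 and 5.75 TPM in the KO LPS pair (-2.82, SE 0.19, adjusted p 6.5e-05), where untreated cells held 104 to 155 TPM. Other genes known as glucocorticoid receptor targets were lower in part, 3 of 14 with a median of -0.18: besides Tsc22d3, Sgk1, a kinase of ion transport, was at 324 and 324 TPM against 142 and 149 TPM (-1.15, SE 0.16), and Klf9 was lower by a fold change of -1.05. Tnip3, an A20-binding protein, was higher (0.75, adjusted p 0.049), with a call lost when KO LPS replicate 2 or any 1 wild-type library was left out, and with median-ratio scaling or quantile normalization. Il10 stood at 26.6 and 17.2 TPM against 35.8 and 40.9 TPM (0.81, adjusted p 0.059), Tnfaip3 at 333 and 295 TPM against 459 and 471 TPM (0.57, adjusted p 0.055) and Nfkbia at 928 and 822 TPM against 1200 and 1150 TPM (0.43, adjusted p 0.13). None of these 3 passed. Their libraries did not overlap, with KO LPS the higher, as was so for 28.7% of all tested genes. Of 19 inflammasome genes 1 was lower, Txnip (-0.72), with a call that did not hold.

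Antigen presentation genes were called both ways, 2 higher and 4 lower of 21, against 4.59% and 2.58% of all tested genes. Their median was 0.04. The MHC class II genes H2-Aa, at 948 and 886 TPM in the WT LPS pair against 401 and 443 TPM in the KO LPS pair (-1.12, SE 0.15, adjusted p 0.0012), and H2-Eb1 (-1.04) were lower. Cd74, their invariant chain, was at 4640 and 4350 TPM against 2070 and 1970 TPM (-1.16, SE 0.16, adjusted p 0.0015). These 3 calls held, and Ctss, the protease that trims Cd74, was lower by a fold change of -0.75 with a call that did not. Ciita, the activator of class II transcription, was higher at low levels, 0.883 and 0.905 TPM against 2.75 and 2.58 TPM (0.95, adjusted p 0.022). Icosl, a costimulatory ligand, was at 30.2 and 27.9 TPM against 104 and 81.3 TPM (1.63, SE 0.18, adjusted p 0.00039). The Ciita call was lost when any 1 of the 4 LPS libraries was left out and the Icosl call held.

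Macrophage genes associated with GM-CSF and PPAR-gamma were lower in KO LPS. Of 17 tested genes 9 were lower and 0 higher, against 2.58% and 4.59% of all tested genes. The list's median was -0.62, and 5 of the calls held. The count was 5 without WT LPS replicate 2. Gdf3, a TGF-beta family member, stood at 13.2 and 12.2 TPM in the WT LPS pair against 0.862 and 1.11 TPM in the KO LPS pair (-2.79, SE 0.19, adjusted p 7.6e-05). Atp6v0d2, a proton pump subunit, was at 17.0 and 12.2 TPM against 2.57 and 3.00 TPM (-2.03, SE 0.20), and Cd36, a receptor for lipoproteins and fatty acids, at 493 and 541 TPM against 209 and 248 TPM (-1.18, SE 0.17). Mmp12, the macrophage elastase (-1.58), and Itgax, the integrin CD11c (-1.25), were lower with calls that held, and Olr1, Ccl6, Plin2 and Lpl with calls that did not. For Gdf3, Cd36 and Itgax the WT LPS libraries stood near the untreated ones and KO LPS stood apart. The list's median relative to WT M0 was -0.06 and 0.05 for the WT LPS pair against -1.21 and -1.05 for the KO LPS pair.

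Markers of alternative activation were lower in 5 of 19 cases and higher in 1, against 2.58% and 4.59% of all tested genes. The list's median was -0.24. Arg1, arginase 1, was at 7.69 and 11.2 TPM in the WT LPS pair against 0.910 and 1.22 TPM in the KO LPS pair (-2.32, SE 0.24, adjusted p 0.00028), with 1.09 to 1.45 TPM in untreated cells, so WT LPS alone was high. Clec7a, the beta-glucan receptor Dectin-1, stood at 86.8 and 97.5 TPM against 22.5 and 30.8 TPM (-1.77, SE 0.20, adjusted p 0.00055). Those calls held, and Folr2 (-0.97), Egr2 and Tgfbi (-0.64) were lower with calls that did not. Mrc1, the mannose receptor, was at 26.1 and 31.9 TPM against 50.1 and 47.7 TPM and was not called (0.74, adjusted p 0.078). Stab1, a scavenger receptor, was higher (0.56, adjusted p 0.049), and that call was lost when any 1 of the 4 LPS libraries was left out, with median-ratio scaling and with quantile normalization. The count of lower genes was 2 without KO LPS replicate 1 and 3 when any other LPS or WT M0 library was left out.

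Of 21 growth factor receptors and lineage factors of macrophages 5 were lower and 0 higher, against 2.58% and 4.59% of all tested genes. The list's median was -0.20. Cebpa, given above, was among the 2 calls that held. Bhlhe41 (-1.46), Csf2rb2, a receptor chain of the interleukin 3 family (-0.70), and Cd200r1, an inhibitory receptor (-0.74), were lower with calls that did not. The count was 3 when any 1 of the 4 LPS libraries was left out.

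Receptors and bridging molecules for dying cells, a process in which Tgm2 is known to act, were called both ways. Of 21 tested 3 were higher and 4 lower, against 4.59% and 2.58% of all tested genes, with a median of 0.01. Gas6, which links dying cells to Axl and Mertk, stood at 37.3 and 35.4 TPM in the WT LPS pair against 113 and 117 TPM in the KO LPS pair (1.64, SE 0.15, adjusted p 0.00016). Untreated cells held 638 to 704 TPM, so KO LPS lay between. Marco, a scavenger receptor for bacteria, was at 194 and 129 TPM against 943 and 570 TPM (2.21, SE 0.36, adjusted p 0.0044). Mfge8, which bridges dying cells to integrins, was at 144 and 77.3 TPM against 48.6 and 44.3 TPM (-1.17, adjusted p 0.018), with a call that did not hold. Cd5l, a secreted scavenger protein, stood at 11.2 and 10.6 TPM against 2.45 and 1.87 TPM (-1.92, SE 0.18, adjusted p 0.00017). The Gas6, Marco and Cd5l calls held. Among 8 tested transglutaminases and their partners other than Tgm2, Mfge8 was the 1 call.

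Antioxidant genes were lower in 11 of 34 cases and higher in 1, against 2.58% and 4.59% of all tested genes, with a median of -0.38. Gclc, the rate-limiting enzyme of glutathione synthesis, was at 162 and 177 TPM in the WT LPS pair against 63.1 and 64.3 TPM in the KO LPS pair (-1.39, SE 0.15, adjusted p 0.00047), just below the 72.0 to 81.9 TPM of untreated cells. Nqo1, a quinone reductase, was at 61.5 and 65.1 TPM against 28.2 and 29.9 TPM (-1.10, SE 0.18, adjusted p 0.0046). Those were the 2 calls that held. Gclm (-0.91), Gss (-0.90) and Prdx1, a peroxidase (-0.82), were lower too, and Gpx3, a secreted peroxidase, was higher (0.98). The count of lower genes fell to 2 without either WT LPS library, to 3 without KO LPS replicate 2, to 6 without KO LPS replicate 1 and to 7 without either WT M0 library. Hmox1, at 2220 and 1930 TPM against 1900 and 1330 TPM, was not called (-0.38, adjusted p 0.32).

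Genes of amino acid and protein folding stress were called both ways. Of 26 tested 6 were higher and 3 lower, against 4.59% and 2.58% of all tested genes, with a median of 0.17. Asns, asparagine synthetase, stood at 92.2 and 74.4 TPM in the WT LPS pair against 36.3 and 41.6 TPM in the KO LPS pair (-1.07, SE 0.18, adjusted p 0.0055), and its transcription factor Atf4 (-0.99) and Trib3 (-1.06) were lower. Hspa5, the chaperone BiP of the endoplasmic reticulum, was at 512 and 465 TPM against 753 and 809 TPM (0.68, adjusted p 0.025), and Xbp1, a factor of the unfolded protein response, at 103 and 99.6 TPM against 170 and 217 TPM (0.91, adjusted p 0.0096). Psat1, an enzyme of serine synthesis (1.05), Manf (0.77), Pdia6 (0.61) and Hsp90b1 (0.55) were higher. Of the 9 calls that of Asns held. The 6 higher calls fell to 0 without KO LPS replicate 2 or WT LPS replicate 2, to 1 without WT LPS replicate 1, to 2 without KO LPS replicate 1, and to 3 with median-ratio scaling or quantile normalization. The 3 lower calls fell to 1 without KO LPS replicate 2 or WT LPS replicate 1.

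Matrix genes and proteases were called 6 times each way among 26 tested, against 4.59% higher and 2.58% lower over all tested genes. The list's median was -0.15. Mmp2, a gelatinase, was at 4.43 and 3.19 TPM in the WT LPS pair against 11.9 and 11.7 TPM in the KO LPS pair (1.42, SE 0.21, adjusted p 0.0027). Col1a1, Col1a2 and Sparc are listed at 0 in both WT LPS libraries and stood at 1.56 TPM or less in KO LPS and from 4.95 to 18.6 TPM in untreated cells. Mmp12, Mmp19 (-0.96) and Serpinb2, a protease inhibitor (-0.97), were among those lower. The Mmp2 and Mmp12 calls held. The higher calls fell to 2 without KO LPS replicate 2, and the lower calls to 2 without KO LPS replicate 2 and 3 when any other LPS library was left out.

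No call was made among 34 oxidative phosphorylation genes, 21 of the tricarboxylic acid cycle, 23 heat shock and proteasome genes or 17 histone and ribosomal protein genes. Their median fold changes were 0.22, 0.13, -0.06 and -0.02. Without WT LPS replicate 1 limma called 1 cycle gene lower and 1 heat shock or proteasome gene higher. The chart of lists by direction sets these beside the lists with many calls.

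**Figure D5:**
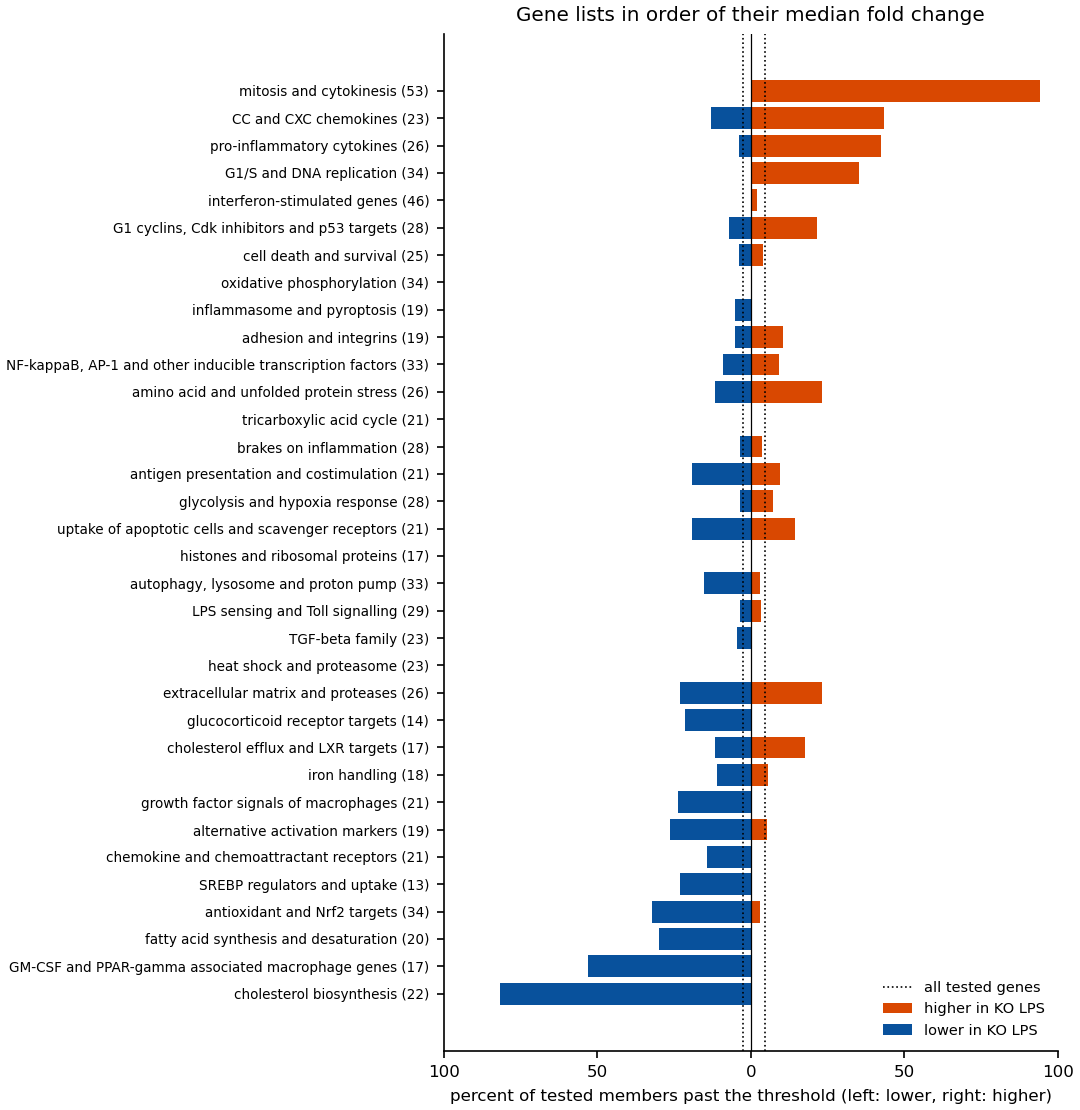
Percent of the tested members of each gene list that were called lower (blue, to the left) or higher (orange, to the right) in KO LPS, with the number of tested members in brackets and lists in order of their median fold change. Dotted lines mark 2.58% lower and 4.59% higher over all tested genes. Mitosis stands at the top with 50 of 53 higher and cholesterol biosynthesis at the bottom with 18 of 22 lower.

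The same genotype comparison without LPS called Tgm2 alone, 0.00901% of the genes tested, and shares no library with the comparison under LPS. At an unadjusted p under 0.05 limma gave 154 genes without LPS and 2215 under LPS. KO M0 is a single library, and its spread is taken to be that of the replicated groups. A low count without LPS therefore does not measure how small the genotype effect is there. The list medians without LPS were 0.35 for mitosis, 0.16 for cholesterol biosynthesis, 0.05 for pro-inflammatory mediators and -0.09 for chemokines, and no member was called. In a test of whether the genotype difference under LPS differed from that without, 152 genes passed (1.37%), 94 of them with a positive difference (0.847%) and 58 with a negative one (0.523%). These included 25 of the 53 mitosis genes, 13 of the 22 cholesterol genes, 4 of 23 chemokines, 4 of 17 GM-CSF and PPAR-gamma associated genes and 3 of 26 pro-inflammatory mediators. The test contains the comparison under LPS, so an overlap with it was largely built in. Of the 152 genes 148 were also called under LPS with the same sign. The count rests on the untreated libraries, since it was 6 without WT M0 replicate 1 and 67 without WT M0 replicate 2, and it was 72 without either KO LPS library. For Tgm2 the difference of the effects was -0.46 (limma adjusted p 0.6).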

How the data were processed

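RNA sequencing libraries of mouse bone marrow-derived macrophages were grouped by their titles. The authors deposited TPM per gene for 23337 genes in each library, and each library sums to 1000000. The build named per the submitters' processing notes is mm10, and the sources used here do not give the aligner, the quantification tool or the annotation. TPM keep no depth, so depth is unknown, no counting interval can be given, and edgeR and DESeq2, which need counts, were not run. Within groups the median absolute log2 difference between replicates was 0.196 (WT LPS), 0.197 (KO LPS) and 0.221 (WT M0), so no library was a copy of another.

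Only genes averaging 1 TPM or more across the 7 libraries were tested. Using limma 3.58.1 (R 4.3.3), a model of group means was fitted to log2(TPM + 1) of every library, with a mean-variance trend. It had 3 residual degrees of freedom and a prior of 7.3, and Benjamini-Hochberg adjusted p-values were taken at 0.05. The 3 comparisons were KO against WT under LPS, KO against WT without LPS, and the difference between them. Gene names were matched to RefSeq GRCm38.p6 (20756 by symbol, 2329 by synonym, 252 unmatched), which gave coordinates. One promoter a gene was taken, the first in the RefSeq table. The steps were tested on simulated data.

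The comparison, the 47 gene lists (41 with at least 5 tested members) and the motifs were chosen with earlier results of these data known. Named genes are Tgm2, the 15 largest rises and 15 largest falls whose calls held (higher group averaging 5 TPM or more, groups not overlapping, no predicted models, pseudogenes, microRNAs or receptor segments), up to 6 called members with the smallest p and the highest member of each list, and 26 set genes and the sex genes. Other members that are named were chosen after their values were seen. Alternatives were median-ratio scaling, quantile normalization, a pseudocount of 0.1, no filter, a minimum mean TPM of 5, a filter on the LPS libraries, no variance trend, an adjusted p of 0.01, autosomal genes, the LPS libraries alone, the replicate number as a block, and each library left out in turn. Python 3.11.15, pandas 2.3.3 and matplotlib 3.10.9 were used. Some genes are not reported here by name and stay in the counts.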

Additional observations from a re-analysis of the deposited data

Results flagged for a closer look

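For 27 genes among the largest rises and falls under LPS, the genotype difference under LPS itself differed from that without LPS. This was by the limma test of the difference between the effects (adjusted p under 0.05). The genes were chosen for large effects under LPS, which enter that test, so the choice favoured a pass. The values below are that difference, the KO minus WT effect under LPS less the effect without LPS, on the log2(TPM + 1) scale. Among chemokines and cytokines it was 4.70 for Ccl7, 3.71 for Ccl2, 3.02 for Il12b and 2.68 for Il6. Among genes of mitosis it was 2.97 for Ccnb2, 2.44 for Nek2, 2.42 for Prr11, 2.37 for Cenpa, 2.35 for Stmn1, 2.29 for Ccnb1, 2.14 for Spag5, 2.12 for Cenpe and 2.11 for Ckap2l. Among sterol and fatty acid genes it was -3.48 for Scd2, -2.47 for Cyp51, -2.46 for Sqle, -2.45 for Msmo1, -2.43 for Sc5d and -2.34 for Fdft1. Among other macrophage genes it was -3.61 for Gdf3, -3.17 for Tsc22d3, -2.69 for Cxcr4, -2.54 for Arg1 and -1.68 for Cyp1b1, a cytochrome P450 that held 13 and 14.8 TPM in the WT LPS pair against 2.57 and 2.32 TPM in the KO LPS pair.

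For genes that marked the WT LPS pair the difference was -6.55 for Ifi208, -5.70 for Xist and -3.93 for Ptgfr. Xist and Ptgfr are listed at 0 in KO LPS, so their values depend on the pseudocount.

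All 27 genes, chosen for large effects under LPS, had the same direction when any library other than KO M0 was left out. Of the 27, 4 passed without WT M0 replicate 1, 17 without WT M0 replicate 2, 22 and 23 without KO LPS replicate 1 and 2, and 26 without either WT LPS library. KO M0 is a single library and the untreated effect rests on it.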

How the results depend on the processing

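Called genes were mainly named for a small p or a large change, which made a reversal unlikely. Across 17 other fits none of the 154 called genes that were named changed direction. Medians near 0 did. That of all genes (0.03) was -0.03 without WT LPS replicate 1 and -0.02 with quantile normalization. That of LPS sensing (-0.04) was 0.05 without KO LPS replicate 1. Those of the uptake, antigen presentation, heat shock, glycolysis and hypoxia, and TGF-beta lists, among others, changed sign in at least 1 fit. Calls in KO LPS vs WT LPS (795) numbered 307 with no filter on low values, 362 at an adjusted p of 0.01 and from 399 to 800 with a library left out. Those higher (509) numbered 213 with no filter, 238 at 0.01, 327 with a minimum mean TPM of 5 and from 256 to 514 with a library left out, and those lower (286) 94, 124 and from 122 to 286, in that order without the minimum of 5. Calls for the difference of the effects (152) numbered 10 with no filter, 92 with a pseudocount of 0.1 and from 6 to 146 with a library left out. KO M0 vs WT M0 (1) gave 20 with no filter, 2 with a pseudocount of 0.1 and from 1 to 3 with a library left out. With no filter 40 mitosis genes, 5 G1/S and replication genes, 3 members of the mediator list and 4 chemokines were higher. Lower in that fit were 12 cholesterol genes, 5 GM-CSF and PPAR-gamma associated genes and 2 antioxidant genes. The cause was not tested.

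With the replicate number as a block 709 genes were higher and 400 lower, 1109 in all against 795. The labels do not tie the numbers to animals or batches, and deviations of same-numbered libraries correlated across genes at 0.181 (WT LPS and KO LPS), 0.298 (WT M0 and KO LPS) and 0.0804 (WT M0 and WT LPS), so the numbers were not taken to pair the samples. Under the block, of 197 named genes 3 gained the call and 0 lost it.

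Of the 197 named genes 154 were called, 87 held with each LPS library left out and 69 were lost in no fit. Depth is unknown, so no limit on low genes can be given.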

Other observations

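Over all tested genes 7.16% were called, 4.59% higher and 2.58% lower. Among 25 genes of cell death and survival Ripk3, the kinase of necroptosis, stood at 5.17 and 6.19 TPM in the WT LPS pair against 15.1 and 14.6 TPM in the KO LPS pair (1.25, SE 0.19, limma adjusted p 0.0026), with a call that held, and Bcl2l11, the cell death activator Bim, was lower (-0.82, adjusted p 0.035), with a call lost when any 1 of the 4 LPS libraries was left out. Among 33 autophagy and lysosome genes 1 was higher and 5 were lower. Ctsl, a lysosomal protease, stood at 1590 and 1450 TPM against 769 and 783 TPM (-0.97, SE 0.15, adjusted p 0.0028) and held, as did Atp6v0d2. Tfeb, a regulator of lysosome genes, was lower (-0.70, adjusted p 0.037) and the galactosidase Glb1 higher (0.66, adjusted p 0.024), with calls that did not hold. The 5 lower calls fell to 2 or 3 when any 1 LPS library was left out and to 2 without either WT M0 library.

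In iron handling 1 gene was higher, Lcn2, and 2 were lower of 18, Alas1, the first enzyme of heme synthesis (-0.94, adjusted p 0.013), and Slc11a1, the metal pump of phagosomes (-0.66, adjusted p 0.027), with calls that did not hold. Leaving out KO LPS replicate 1 or WT LPS replicate 2 gave 0 lower and 2 higher genes. Egln3, an oxygen sensor, stood at 10.4 and 12.3 TPM in the WT LPS pair against 4.38 and 3.38 TPM in the KO LPS pair (-1.35, SE 0.21, adjusted p 0.0032) and held, while 2 of 28 glycolysis and hypoxia genes, Adm (1.41) and Pfkm (0.92), were higher with calls that did not hold. Osteoclast markers were called 1 time higher and 3 times lower of 8. Calcr, the calcitonin receptor, is listed at 0 in the untreated libraries and entered the test only through its KO LPS values. It stood at 0.616 and 1.07 TPM in the WT LPS pair against 7.22 and 10.2 TPM in the KO LPS pair (2.39, SE 0.25, adjusted p 0.0003). Acp5, the acid phosphatase of osteoclasts, was lower (-1.08, adjusted p 0.0053). Among 23 genes of the TGF-beta family Gdf3 was the 1 call, and among 19 adhesion genes Itgax was lower and Itgal (0.56) and Pecam1 (1.14) were higher, the last pair with calls that did not hold.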
